A study of Homo sapiens with 6 samples.

Results

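The type II keratins are the basic and neutral keratins, read here in MCF10A cells with C/EBPbeta-2 against control MCF10A cells. The members were chosen by name, as every probe set whose only gene symbol in the probe annotation is KRT1, KRT4, KRT5, KRT6A, KRT6B, KRT7, KRT8, KRT80 or KRT81. Of these 9 genes, 6 had a probe set of their own, with 10 probe sets in all, out of 19775 genes on the array. The annotation used here gave none to KRT6A, KRT6B or KRT81, and these 3 were not analysed here. MCF10A is an immortal but non-tumorigenic breast epithelial cell line of human origin, and C/EBPbeta-2 is one of the protein isoforms made from CEBPB, a gene for a leucine zipper transcription factor. The study holds 6 arrays, 3 of cells with C/EBPbeta-2 and 3 of MCF10A cells alone. Both groups grew in the same medium with horse serum, insulin, hydrocortisone, EGF and cholera toxin, and no treatment was given. The labels do not give the route by which the cells received C/EBPbeta-2, and they name the arrays biological replicates without saying what separated them.

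Keratins are the intermediate filament proteins of epithelial cells. A filament is built from heterodimers of 1 type II and 1 type I chain, and a chain without its partner is usually degraded. In stratified and glandular epithelia the pair in use follows the cell's place: KRT5 with KRT14 in basal cells, KRT8 with KRT18 in simple and luminal cells, KRT1 with KRT10 in the upper epidermis, and KRT4 with KRT13 in the upper layers of moist mucosa. KRT7 belongs to simple and ductal epithelia, KRT80 is a more widely spread epithelial keratin, KRT6A and KRT6B are keratins of stress and wound repair, and KRT81 is a hair keratin.

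Values are log2 intensities, and array medians lay between 4.46 and 4.56. CEBPB itself (212501_at) read 10.29, 10.50 and 11.38 on the arrays labelled C/EBPbeta-2, against 11.27, 11.38 and 11.37 on control arrays, so it did not check the labels. Of each group 1 array stood apart in its control probe sets: the poly-A spike-in RNA had a mean of 3.73 (C/EBPbeta-2 replicate 2) and 3.86 (control replicate 1), and the other 4 arrays had 6.75 to 7.65. The 18S ribosomal RNA probe sets were highest on C/EBPbeta-2 replicate 1 (12.19) and control replicate 2 (12.17), with 5.62 to 10.33 elsewhere. The 3 arrays of each group thus fell into the same 3 classes by control probe sets: low spike, highest 18S and other. The ACTB control probe sets differed by 1.32 and 1.48 log2 units, 3′ minus 5′, on the low-spike arrays, and by -0.04 to 0.64 elsewhere. For GAPDH this difference was 0.12 to 0.32 on all 6 arrays. The part of RNA quality in the keratin values was not tested. Of the epithelial markers KRT5, KRT8, KRT18, EPCAM, CDH1 and ITGB4 all averaged above the array medians in both groups. CDH1, the E-cadherin of epithelial junctions, was nevertheless lower with C/EBPbeta-2: it read 8.75, 8.57 and 8.07 there, against 10.58, 10.76 and 10.47 in control cells (201131_s_at). Its difference was -2.14, with a limma adjusted p of 0.0504 over all probe sets, just short of a call at 0.05, of 0.0245 with 1 test per gene, and of 0.0106 to 0.448 over 16 alternatives. Summed over the general epithelial list (KRT8, KRT18, EPCAM, CDH1) the linear intensity was 3751 to 4849 with C/EBPbeta-2 and 4780 to 5841 in control cells. Summed over the basal list (KRT5, KRT14, ITGB4) the linear intensity was 7455 to 9243 with C/EBPbeta-2 and 15243 to 21285 in control cells. In this list KRT14 differed by -3.00 log2 units, while KRT5 (-0.13) and ITGB4 (-0.51) had overlapping groups. KRT5 is also a member, so this sum is not separate from the keratin values. The luminal and milk list summed to 447 to 484 with C/EBPbeta-2 and 288 to 530 in control cells. The endothelial list summed to 59.2 to 63.9 with C/EBPbeta-2 and 59.3 to 85.1 in control cells. The 6 fibroblast markers summed to 284 to 474 with C/EBPbeta-2 and 665 to 3623 in control cells. The brightest was DCN (mean 7.55 with C/EBPbeta-2 and 10.16 in control cells), then COL1A1 (6.70 and 6.84), while LUM lay under the array medians. The 4 leukocyte markers measured summed to 172 to 217 with C/EBPbeta-2 and 118 to 133 in control cells, mostly CD14, while PTPRC lay under the array medians. The part of these marker levels in the keratin values was not tested.

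The regions just before a listed start of 3 members were at hand in the RefSeq promoter table (GRCh38.p14). They are shown because C/EBP factors bind DNA. None of the 3 members was called between the groups. KRT4 read lower on every C/EBPbeta-2 array at 1 of its 2 probe sets, and KRT5 and KRT8 had overlapping groups. Each region runs 5′ to 3′ over the 250 bases before the listed start, on the minus strand. Which start these cells used was not tested. Capitals mark a match to a loose C/EBP-type motif, TTNNGNAAT, TTNNGNAAG, TGNNGNAAT or TGNNGNAAG, searched on both strands. KRT5 (chr12:52520395-52520644) held 2 matches, KRT4 (chr12:52814117-52814366) held 1, and KRT8 (chr12:52926470-52926719) held 1, which reads on the opposite strand.
KRT5: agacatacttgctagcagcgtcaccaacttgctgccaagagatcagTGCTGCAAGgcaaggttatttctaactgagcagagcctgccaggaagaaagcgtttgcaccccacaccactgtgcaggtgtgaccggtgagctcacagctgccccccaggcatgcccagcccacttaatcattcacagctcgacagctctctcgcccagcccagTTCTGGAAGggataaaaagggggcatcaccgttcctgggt
KRT4: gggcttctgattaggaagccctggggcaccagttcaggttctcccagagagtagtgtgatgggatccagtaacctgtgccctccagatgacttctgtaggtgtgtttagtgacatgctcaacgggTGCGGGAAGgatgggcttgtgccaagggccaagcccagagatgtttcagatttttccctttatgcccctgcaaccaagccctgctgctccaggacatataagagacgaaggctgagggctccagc
KRT8: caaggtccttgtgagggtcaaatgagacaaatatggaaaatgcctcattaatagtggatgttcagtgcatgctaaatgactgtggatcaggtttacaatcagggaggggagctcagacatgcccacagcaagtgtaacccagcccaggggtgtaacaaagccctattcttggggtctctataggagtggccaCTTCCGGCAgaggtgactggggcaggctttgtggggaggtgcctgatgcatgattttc
The same search found a match in 36.6% of all 35116 promoters of this length in the table, so a match is common. The matches are letters in a window, and no binding was measured.

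None of the 10 member probe sets passed the test between the groups. The test was limma, C/EBPbeta-2 minus control, with Benjamini-Hochberg adjustment over all 54613 probe sets and a call at an adjusted p under 0.05, a rule that called 0.0659% of them. At an unadjusted p under 0.05 stood 2 members, KRT80 (231849_at) and KRT4 (213240_s_at), where 3.98% of all probe sets did. The groups did not overlap at 3 of the 10, KRT80 above control and KRT4 (213240_s_at) and KRT7 (1558394_s_at) below it, where 7.62% of all probe sets were apart. KRT80 and KRT4 were also the 2 that differed by at least 1 on the log2 scale, as 1.84% of all probe sets did. The other 8 differed by -0.40 to 0.12. The median over the 10 was -0.19, and over all probe sets it was -0.00088. In these cultures fewer cells with a keratin and less of its RNA per cell cannot be told apart.

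**Figure D1:**
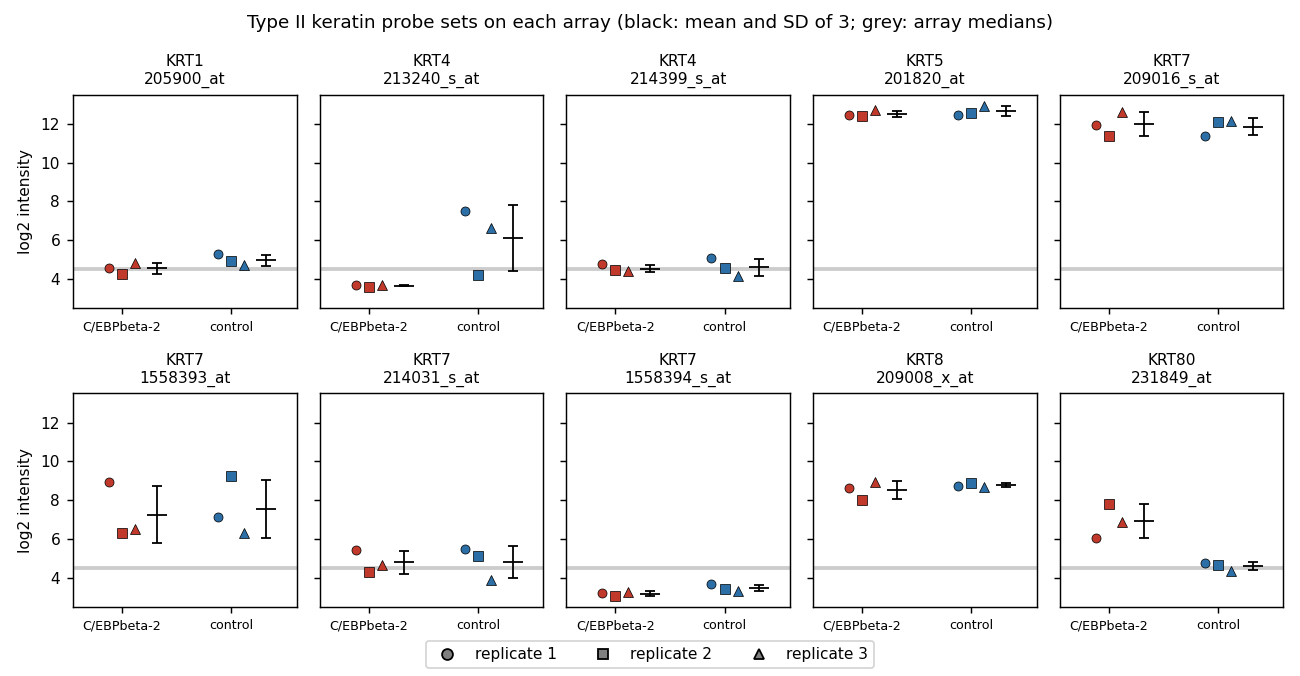
Log2 intensity of each of the 10 type II keratin probe sets (vertical axis) on the 3 C/EBPbeta-2 arrays (red) and the 3 control arrays (blue), with the mean and SD in black and the range of array medians in grey. KRT80 was 6.04 to 7.80 with C/EBPbeta-2 and 4.35 to 4.76 in control cells, and KRT5 was above 12 on every array.

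KRT5, the type II keratin of basal cells, was bright and nearly level across the study. Its probe set 201820_at read 12.47, 12.38 and 12.69 on C/EBPbeta-2 arrays, against 12.44, 12.56 and 12.93 on control arrays. The values of the groups interleaved, and the means were 12.51 ± 0.16 with C/EBPbeta-2 and 12.64 ± 0.25 in control cells (SD, n = 3 each). The difference was -0.13, with a 95% interval of -0.58 to 0.32 (limma adjusted p = 1.00). The interval leaves out a change of 2-fold in either direction.

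KRT14, the type I keratin that pairs with KRT5, was lower with C/EBPbeta-2 on every array. It read 9.72, 11.04 and 10.24 on C/EBPbeta-2 arrays, against 13.12, 13.32 and 13.57 on control arrays. The groups did not overlap, with a difference of -3.00 (SE 0.34). Its limma adjusted p was 0.0648 over all probe sets, short of the threshold, and 0.0300 with 1 test per gene, a rule that called 0.273% of genes. It was called in 5 of 17 alternatives (adjusted p 0.0203 to 0.378). Taken within each array, KRT5 minus KRT14 was 2.76, 1.34 and 2.45 with C/EBPbeta-2, against -0.68, -0.76 and -0.64 in control cells. The balance between the partners differed by 2.87 log2 units between groups (exact two-sided permutation p = 0.1, the smallest that 3 against 3 can give, and 0.333 adjusted over the 5 pairs measured). Such a value compares change between groups and says nothing of which RNA is the more abundant, since the probes differ.

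KRT8 and KRT18, the pair of simple epithelia, were both well above the array medians. KRT8 (209008_x_at) read 8.62, 8.00 and 8.96 with C/EBPbeta-2, against 8.73, 8.89 and 8.68 in control cells. The lowest of the 6 was C/EBPbeta-2 replicate 2, 1 of the 2 low-spike arrays, and without that array the difference of -0.24 (95% interval -0.86 to 0.38, limma adjusted p = 1.00) became 0.022. KRT18 (201596_x_at) averaged 11.61 with C/EBPbeta-2 and 11.52 in control cells, a difference of 0.09. KRT8 minus KRT18 was -2.98, -3.35 and -2.91 with C/EBPbeta-2, against -2.54, -2.75 and -2.96 in control cells. The groups overlapped and differed by -0.33 (exact permutation p = 0.2, 0.333 adjusted over 5 pairs). Both probe sets end in _x_at, a mark of probes shared with related transcripts, and keratin pseudogenes are many, so their reads are uncertain in origin.

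KRT7, a keratin of simple and ductal epithelia, had 4 probe sets with different patterns over the arrays. The brightest, 209016_s_at, read 11.94, 11.36 and 12.63 with C/EBPbeta-2, against 11.36, 12.07 and 12.12 in control cells. Its difference was 0.12 (95% interval -0.75 to 1.00, limma adjusted p = 1.00), and the groups overlapped throughout. The second, 1558393_at, read 8.94, 6.32 and 6.49 with C/EBPbeta-2, against 7.15, 9.22 and 6.28 in control cells. Its 2 high values fell on the 2 arrays with the highest 18S ribosomal RNA signal, 1 in each group, and the part of that signal was not tested. Its interval, -2.59 to 2.00 around -0.30, holds changes of either direction at this spread.

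The other KRT7 probe sets were dim. The probe set 214031_s_at read 5.44, 4.27 and 4.66 with C/EBPbeta-2, against 5.45, 5.13 and 3.87 in control cells, a difference of -0.03. The probe set 1558394_s_at lay below the array medians throughout, at 3.23, 3.04 and 3.26 with C/EBPbeta-2, against 3.66, 3.44 and 3.31 in control cells. Its groups did not overlap, though their nearest values were 3.26 and 3.31, and its difference was -0.29 (SE 0.16, limma adjusted p = 1.00). Over the 6 arrays the brightest probe set followed none of the others closely, with Pearson's r of 0.05, -0.19 and -0.11, given as a description of 6 values that share arrays. KRT19, a type I keratin often found with KRT7, was under the array medians in both groups (228491_at, mean 3.99 with C/EBPbeta-2 and 3.97 in control cells). KRT7 minus KRT19 is therefore not read as a balance of partners.

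KRT80 had the largest positive difference among the members, though it was not called. Its probe set 231849_at read 6.04, 7.80 and 6.88 on C/EBPbeta-2 arrays, against 4.76, 4.68 and 4.35 on control arrays. All 3 C/EBPbeta-2 arrays were above all 3 control arrays, and the control values lay close to the array medians. The means were 6.90 ± 0.88 with C/EBPbeta-2 and 4.60 ± 0.22 in control cells (SD, n = 3 each). The difference was 2.31 (SE 0.43, 95% interval 1.28 to 3.34), or 4.95-fold, with a limma adjusted p of 0.289. It was 3.04 between the 2 low-spike arrays and 1.94 among the 4 others. With the groups apart, no choice of arrays could have reversed the direction. Leaving out any 1 array gave 1.86 to 2.74, and over 17 tested alternatives the adjusted p ran from 0.0777 to 0.970. The lowest came with the control-probe class as a term, which was chosen after seeing the data. No detection calls were used here, so a control level near the array medians makes the fold uncertain.

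KRT4, the mucosal keratin, was variable in control cells and low with C/EBPbeta-2. Its probe set 213240_s_at read 3.67, 3.60 and 3.69 on C/EBPbeta-2 arrays, against 7.52, 4.21 and 6.61 on control arrays. The C/EBPbeta-2 values were nearly equal and under the array medians, and control replicate 2 (4.21) was the nearest control value above them. The difference was -2.46 (SE 0.78, 95% interval -4.33 to -0.59, limma adjusted p = 0.904). It was -3.41 without control replicate 2 (adjusted p = 0.0529) and -1.76 without control replicate 1, and within the low-spike and the other arrays it was -3.92 and -1.73. The other KRT4 probe set, 214399_s_at, did not show this. It read 4.75, 4.45 and 4.40 with C/EBPbeta-2, against 5.05, 4.57 and 4.13 in control cells, all near the array medians, and differed by -0.06 (95% interval -0.68 to 0.57).

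KRT13, the type I partner of KRT4, did pass the test. It read 3.27, 3.14 and 3.36 with C/EBPbeta-2, against 4.84, 4.96 and 5.10 in control cells (207935_s_at), and fell by 1.71 (limma adjusted p = 0.0347). It was not called in any of the 6 fits that each dropped 1 array (adjusted p 0.0702 to 0.228), while the difference stayed between -1.77 and -1.64. At these probe sets both chains of the pair were under the array medians on all C/EBPbeta-2 arrays. The within-array difference of KRT4 and KRT13 on those arrays is therefore not read as a balance of partners, and the sizes of both differences are uncertain.

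KRT1, a keratin of the upper epidermis, was dim in both groups. Its probe set 205900_at read 4.58, 4.26 and 4.83 with C/EBPbeta-2, against 5.28, 4.91 and 4.69 in control cells. The groups overlapped, with a difference of -0.40 (95% interval -0.94 to 0.14, limma adjusted p = 1.00). It was -1.01 between the low-spike arrays and -0.09 among the others. Its partner KRT10 (213287_s_at) read 9.65, 10.28 and 10.05 with C/EBPbeta-2, against 11.61, 10.27 and 10.80 in control cells, a difference of -0.90 that was not called. Its other probe sets, 207023_x_at and 210633_x_at, had groups apart, at -0.99 (limma adjusted p = 0.576) and -0.87 (0.512). KRT1 minus KRT10 overlapped between groups and differed by 0.50 (exact permutation p = 0.2, 0.333 adjusted over 5 pairs).

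**Figure D2:**
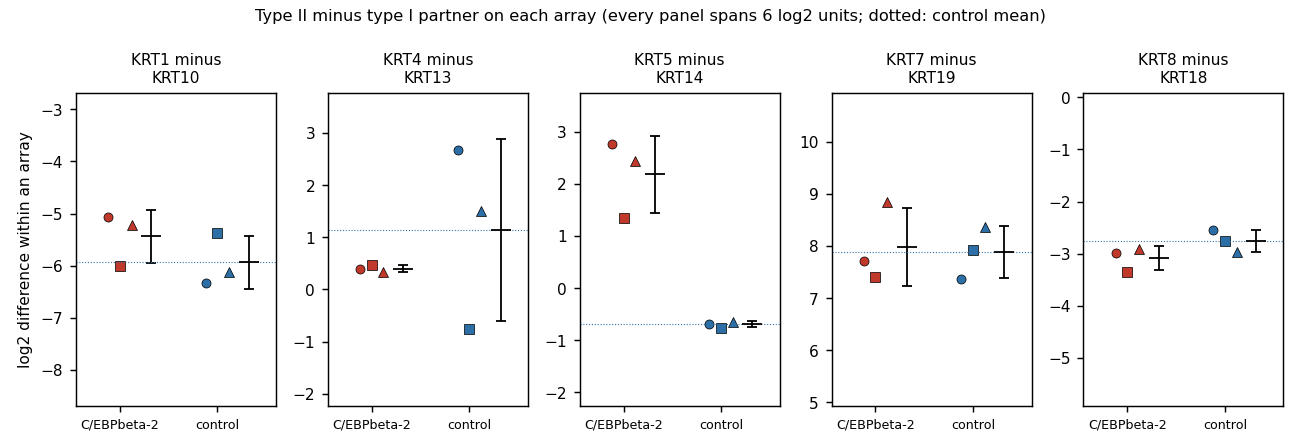
Within-array log2 difference of each type II keratin minus a usual type I partner (vertical axis, 6 log2 units in every panel) on the C/EBPbeta-2 arrays (red) and control arrays (blue), with mean and SD in black. KRT5 minus KRT14 was 1.34 to 2.76 with C/EBPbeta-2 and -0.76 to -0.64 in control cells, and its groups were apart. KRT19 lay under the array medians on average in both groups, and KRT4 and KRT13 on all C/EBPbeta-2 arrays, so those panels show dim readings.

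The other genes of the type II family, a list chosen by name, had small differences between the groups. Of 17 listed, 14 had a probe set of their own, and limma called 0 of them. An unadjusted p under 0.05 was reached by 0, and groups were apart at 0. Genes were read at their brightest probe set, and of all genes so read 0.116% were called and 8.63% had groups apart. The differences of the 14 ran from -0.29 (KRT2, of the upper epidermis) to 0.33 (KRT77), with KRT75, a hair follicle keratin, at -0.23. In both groups 10 of the 14 averaged below every array median, so most of the list lay at the dim end of the arrays, where a change could be missed. Together with the members, 18 of 20 type II keratins differed by less than 0.5 on the log2 scale, all but KRT80 and KRT4. Over all genes so read, a share of 0.05 lay below -0.47 and a share of 0.05 above 0.51. Differences this small are thus common, and the count is near the background. All 20 type II keratins lie on chromosome 12 (GRCh38.p14), where KRT80 is the type II keratin at one end, next to KRT7, and KRT4 lies between KRT3 and KRT79. Beside KRT80 (2.31), KRT7 differed by 0.12, and beside KRT4 (-2.46), KRT3 differed by -0.09 and KRT79 by -0.04. KRT3 (mean 3.96 with C/EBPbeta-2 and 4.05 in control cells) and KRT79 (4.29 and 4.33) lay below every array median. A fall like that of KRT4 could be missed there.

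**Figure D3:**
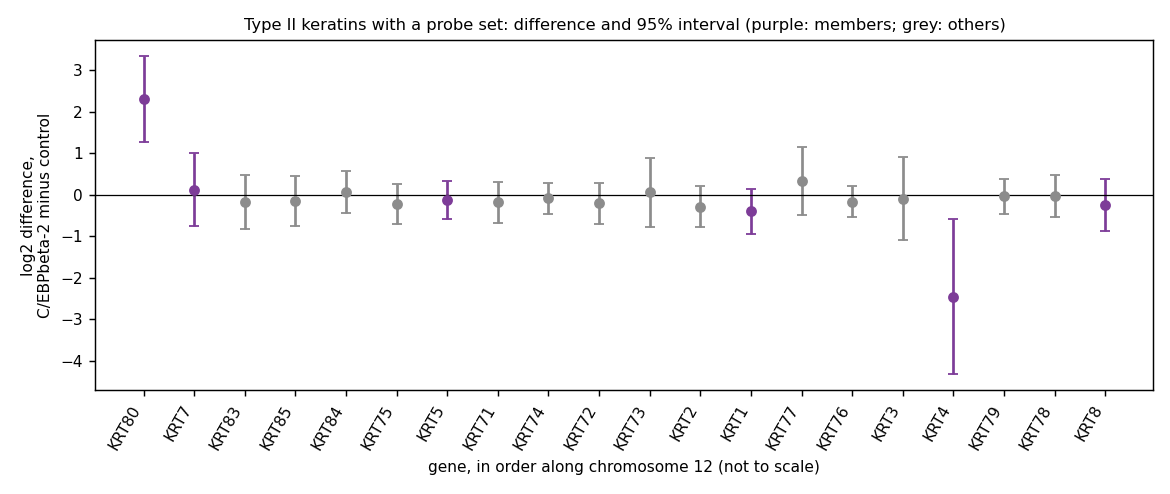
Log2 difference, C/EBPbeta-2 minus control, with its 95% interval from limma (vertical axis) for the 20 type II keratins with a probe set, each at its brightest, in gene order along chromosome 12 (horizontal axis, not to scale). KRT80 (2.31) and KRT4 (-2.46) stood off, and the 18 others lay between -0.40 and 0.33. KRT3 and KRT79, beside KRT4, averaged below every array median in both groups.

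Of 28 type I keratins listed 23 were measured. Limma called 1 of them, KRT13, and with 1 test per gene 2, adding KRT14, and both were lower with C/EBPbeta-2. Groups were apart at 5 of the 23, 4 lower and 1 higher, against 8.63% of all genes. The largest differences were in KRT14 (-3.00), KRT15, a basal keratin (-2.28, adjusted p = 0.296), and KRT16, a partner of the stress keratins (-1.76, adjusted p = 0.531). The list's median was -0.08, and 15 of the 23 averaged below the array medians in both groups. With the control-probe class as a term, KRT14, KRT15 and KRT16 were called as well (limma adjusted p = 0.0351, 0.0398 and 0.0272). That term was chosen after seeing the data, and with it 191 probe sets were called, against 36 without it. KRT15 and KRT16 were each called in only this 1 of 17 alternatives, where KRT15 had 0.0398 to 0.970 and KRT16 0.0272 to 1.00.

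Keratin filaments are tied to desmosomes and hemidesmosomes by plaque proteins, and of 10 such anchors limma called 0, while 1 reached an unadjusted p under 0.05 and 1 had groups apart. Of all genes 5.4% reached that p and 8.63% had groups apart, so 1 of 10 is near the background. It was JUP, plakoglobin, which read 9.09, 8.84 and 9.24 with C/EBPbeta-2, against 9.50, 9.54 and 9.68 in control cells, a difference of -0.52 (adjusted p = 0.911). The largest differences were in PPL, periplakin (-1.41), PKP2, a plakophilin (-0.76), and DST, the dystonin gene whose epithelial form binds keratin at hemidesmosomes (0.73), none of them called. PPL read 7.62, 7.49 and 7.42 with C/EBPbeta-2, against 9.84, 7.41 and 9.51 in control cells. For PPL, control replicate 2 lay with the C/EBPbeta-2 arrays. For KRT4 (213240_s_at) it was the control array nearest to them, though there the groups were apart. With 1 array left out PPL ran from -2.16 (without control replicate 2, limma adjusted p = 0.0489) to -0.95 (without control replicate 1), and its adjusted p was 0.0489 to 1.00 over 17 alternatives. DST was 0.28 without control replicate 2, and PKP2 was -1.29 without it and -0.46 without control replicate 3.

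Of 9 measured factors known to act on keratin or epithelial genes limma also called 0, while 3 reached an unadjusted p under 0.05, all lower with C/EBPbeta-2 and with groups apart, against the 5.4% and 8.63% of all genes. They were EHF, an epithelial ETS factor (-4.96, adjusted p = 0.277), GRHL3, a grainyhead family factor known for epidermal barrier formation (-2.13, adjusted p = 0.58), and ELF3, another ETS factor (-0.999, adjusted p = 0.601). EHF read 3.54, 3.17 and 2.82 with C/EBPbeta-2, against 9.73, 5.98 and 8.70 in control cells. Control replicate 2, 1 of the 2 arrays with the highest 18S signal, was again the lowest of its group. The other such array, C/EBPbeta-2 replicate 1, was the highest of its group, and the part of that signal was not tested. Without control replicate 2 EHF differed by -6.04 (limma adjusted p = 0.0283, and 0.0283 to 1.00 over 17 alternatives). Its C/EBPbeta-2 values lay under every array median, so the size of the difference is uncertain. The list's median was -0.51, and over all genes the median was 0.0089. TFAP2A, the AP-2 factor, was level at -0.01.

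**Figure D4:**
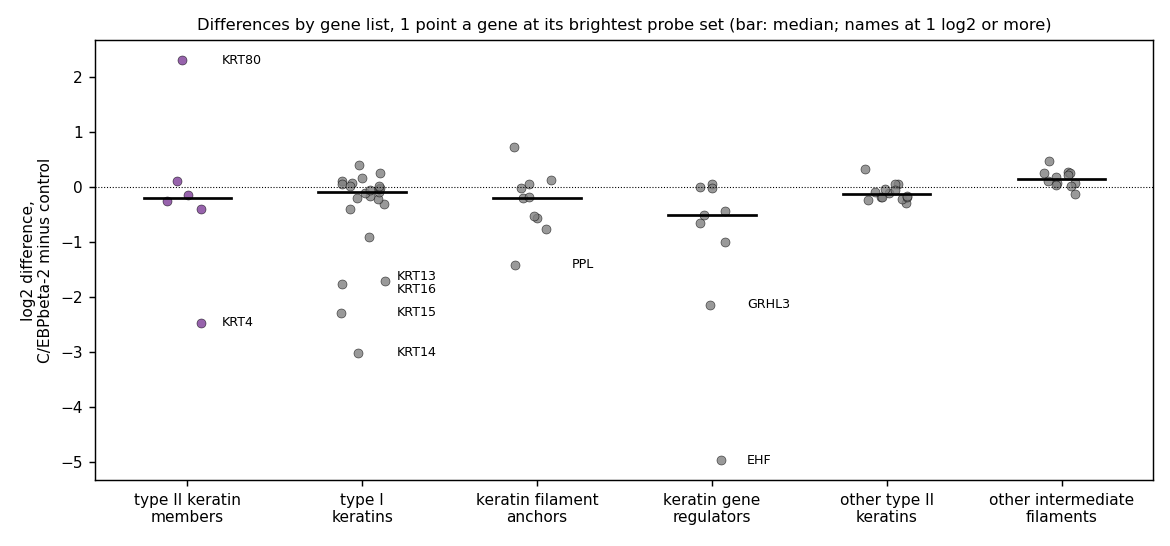
Log2 difference, C/EBPbeta-2 minus control (vertical axis), 1 point a gene at its brightest probe set, for the members and for 5 lists chosen by name, with the median as a bar. Names stand beside genes that differed by at least 1, from EHF at -4.96 to KRT80 at 2.31.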

How the data were processed

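RNA from 3 samples of MCF10A cells with C/EBPbeta-2 and 3 of MCF10A cells alone was hybridised to Affymetrix arrays, with biotin-labelled RNA made from oligo-dT primed cDNA, per the labels' protocols. The authors deposited an intensity for each probe set on each array, made with RMA per the submitters' processing notes, which give no version or settings. They were on a linear scale (4.17 to 17825), by a step the notes do not describe. Their log2 was used as it stood, without a pseudocount or renormalization. The 62 AFFX control probe sets were set aside and 54613 were tested with limma 3.58.1 (lmFit, eBayes; R 4.3.3), taking C/EBPbeta-2 minus control without covariates. P-values measure the spread between these arrays, whose number limits the precision, and no detection calls were used. The probe annotation gave 1 gene symbol to 41091 probe sets, several to 1801 and none to 11721, and only those with 1 were named. All 6 members with a probe set matched the gene reference by gene ID. The brightest probe set of a gene is that with the highest mean over all 6 arrays. Within-array pair differences were compared by exact two-sided permutation. Of the 7 pairs planned, 5 could be measured. Low-spike arrays were those whose mean poly-A spike-in value lay below the middle of its range.

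The members, the lists and the alternatives were chosen with earlier results of these data known. The text names every member probe set, the type I partners, the called genes and the 3 largest differences of each list of keratins, other filaments, anchors and factors, while marker lists are given by sums, and any further gene was picked with its values in view. The fit was tested on simulated data with independent noise. These did not hold the control-probe classes of the arrays, so that test says nothing of their effect. The alternatives left out each array or a pair of arrays, added the replicate number, the spike class or the control-probe class, changed the normalization, the weights, the variance prior, the filter, the threshold, or tested genes in place of probe sets. Python 3.11.15, pandas 2.3.3, numpy 2.4.6 and matplotlib 3.10.9 made the counts and plots.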

Additional observations from a re-analysis of the deposited data

How the results depend on the processing

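Among the member probe sets 0 were called under any of 20 alternatives. Over all probe sets 36 were called, and 12, 23 and 5 without C/EBPbeta-2 replicates 1, 2 and 3, 15, 37 and 7 without control replicates 1, 2 and 3, 78 with dim probe sets left out, 67 with a trended and robust prior, 122 with array weights and 92 at an adjusted p under 0.1. Without the low-spike arrays 6 were called and without the 2 arrays of highest 18S signal 0, and with the control-probe class of the array (low spike, highest 18S, other) as a term 191, alternatives chosen after seeing the data. With the replicate number as a block 0 probe sets were called, members included, and KRT13 lost its call (adjusted p = 0.312), as it did without the low-spike arrays (0.369) and without the high-18S arrays (0.252). Same-numbered arrays had correlations of their deviations of -0.45, -0.55 and 0.42 for numbers 1, 2 and 3. Arrays of the same control-probe class had 0.66 (low spike), 0.64 (highest 18S) and 0.42 (other), and 2 of 6 arrays correlated best with their own number. The labels do not say whether equal numbers mean paired samples. These values cannot tell, since the control-probe class also enters them. KRT1, KRT80, KRT4 (213240_s_at) and KRT7 (1558394_s_at) kept their direction throughout. The 6 other member probe sets, all with small differences, changed sign under some alternative, and the cause was not tested. Part of this was fixed in advance. Where groups were apart, as at KRT80, KRT4 (213240_s_at) and KRT7 (1558394_s_at), leaving out arrays could not reverse the direction. The replicate, spike class and control-probe class terms were balanced over the groups and left each difference unchanged. With 1 array left out, differences ran from -0.28 to 0.18 for KRT4 (214399_s_at), -0.23 to 0.013 for KRT5, -0.20 to 0.43 for KRT7 (209016_s_at), -1.14 to 0.54 for KRT7 (1558393_at), -0.50 to 0.29 for KRT7 (214031_s_at) and -0.46 to 0.022 for KRT8. KRT7 (214031_s_at) gave 0.0023 after quantile normalization, 0.15 with array weights and 0.55 without the low-spike arrays. KRT7 (1558393_at) gave 0.058 with array weights, and KRT4 (214399_s_at) gave 0.22 and KRT8 0.0033 without the low-spike arrays. Of other genes, KRT18 ran from -0.046 to 0.22 and KRT19 from -0.095 to 0.12 with 1 array left out, and KRT19 was -0.0031 without the high-18S arrays. Of the pairs, KRT5 minus KRT14 ran from 2.59 to 3.30. KRT4 minus KRT13 was 0.45 with each gene's probe sets averaged and -1.70 to 0.017 with 1 array left out, and KRT7 minus KRT19 was -0.16 and -0.32 to 0.39. Low signal limits KRT1, KRT4, KRT80, the dim KRT7 probe sets, KRT13, KRT19 and EHF, which lie near or under the array medians in at least 1 group, and the pairs that use KRT13 or KRT19.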

Other observations

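Intermediate filament genes outside the keratins gave no calls. Of 12 measured, limma called 0, and an unadjusted p under 0.05 was reached by 0. Groups were apart at 1, NEFM, a neurofilament (0.26), against 8.63% of all genes. Their median difference was 0.15, and 6 of the 12 averaged below the array medians in both groups, where a change could be missed. VIM, the vimentin of mesenchymal and cultured cells, averaged 12.28 with C/EBPbeta-2 and 12.40 in control cells, a difference of -0.12. The largest differences were in the nuclear lamins LMNB1 (0.48, 95% interval -0.15 to 1.11) and LMNB2 (0.27) and in DES, the desmin of muscle (0.27).

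Each member, at its brightest probe set, was compared with 12662 genes outside the members whose mean log2 was at or above that of the median probe set. The measure was Pearson's r, as a description of 6 values that share arrays. The gene that followed most closely was CENPO for KRT80 (r = 0.996), GPM6B for KRT4 (0.999), ACTA2 for KRT5 (0.990), PPFIA3 for KRT7 (0.997), VAT1 for KRT8 (0.991) and CALCOCO1 for KRT1 (0.976). CENPO differed by 0.75 and GPM6B by -1.17 between C/EBPbeta-2 and control, and neither was called. With so many genes and so few arrays, values this high are easily reached.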
